A study of Homo sapiens with 12 samples.

Results

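The heat shock chaperone genes described here are 10 genes, taken by symbol: HSP90AA1, HSP90AB1, HSPA1A, HSPA1B, HSPA8, HSPH1, DNAJB1, HSPD1, HSPE1 and BAG3. All 10 were among the 25268 gene symbols with values, and all 10 were among the 14676 genes with a mean of at least 0.5 FPKM (fragment counts corrected for transcript length and library size) that were tested. RNA was sequenced from HEK293, an established human embryonic kidney cell line, transiently transfected with 2 µg of a plasmid (pCMV6-HIS-HA-RBMX) expressing His-HA-tagged RBMX, an RNA-binding protein, or, as control, with the empty vector (mock). The control samples carry the genotype label wild type, and transfection and the CMV-driven vector were shared by both groups. Each of the 6 cultures, 3 per vector, was treated briefly with cycloheximide, and its lysate was separated on a sucrose gradient, from which total RNA (20% of every fraction, pooled) and polysomal RNA (the fractions in which mRNAs carry several ribosomes) were taken. This gave 12 libraries, from 500 ng of RNA each.

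Chaperones bind unfolded proteins and help them fold. HSP70 proteins work in cycles driven by ATP, with J-domain proteins that deliver clients and nucleotide exchange factors that release them, while HSP90 acts later on kinases, receptors and other clients. The heat shock factor HSF1 switches on many of these genes by binding heat shock elements, arrays of GAA units in alternating orientation, and HSP70 of the inducible type is the classical target. HEK293 cells are a transformed line that holds several of these mRNAs at high levels without heat.

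The labels of the libraries were checked on RBMX itself, which stood at 147, 145 and 108 FPKM in control total RNA and at 1731, 2073 and 1460 FPKM in RBMX total RNA (log2 difference 3.71 ± 0.19 SE, adjusted p = 0.00269). In polysomal RNA it was 146, 148 and 87.4 FPKM in control and 1167, 1328 and 1072 FPKM in RBMX cells (3.25 ± 0.24, adjusted p = 0.0415). All 7 markers of HEK293 had a median of at least 1 FPKM, and 7 of 9 markers of other cell types stayed under 1 FPKM in every library, while CD68 (4.98 to 32.1 FPKM) and COL1A1 (3.14 to 8.61) did not. Sequencing depth per library is unknown. Small RNA genes, recognized by symbol, took 40.6% to 72.9% of the FPKM sum, with the highest share in control total replicate 3. Control replicate 3 stood apart in both fractions: its Spearman correlations with replicates 1 and 2 over all genes but the small RNA genes were 0.983 and 0.980 in total and 0.976 in polysomal RNA with each, against 0.997 and 0.998 between replicates 1 and 2. Results are therefore given with and without it. RBMX polysomal replicate 2 was also less like its group, at 0.990 and 0.983 with replicates 1 and 3, against 0.992 between those. In RBMX total RNA replicate 3 was the less alike, at 0.9923 and 0.9925 with replicates 1 and 2, against 0.9969 between those.

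Heat shock elements were searched in the promoters because the members are known as targets of one factor, and because 9 of 10 were lower in control culture 3. A link between these words and the levels was not tested. RefSeq windows on GRCh38.p14, from 250 bases before to 50 after each annotated start, were found for 10 of 10 members, 16 windows in all. The word with 3 units, GAANNTTCNNGAA or TTCNNGAANNTTC (the pair covers both strands), was present in 0.49% of 35116 windows of all genes and in 4 of the 16 windows of the members, those of 4 genes, HSP90AA1, HSP90AB1, HSPA8 and HSPD1. The word with 2 units, GAANNTTC or TTCNNGAA (each is its own reverse complement, and the longer word contains it), was present in 13.5% of all windows and in 8 of the 16 windows of the members, those of 7 genes, the 4 above and HSPA1A, HSPA1B and DNAJB1. No match lay in the windows of HSPE1, HSPH1 and BAG3, which says only that these letters are not in these windows. Of the matches, 1 of the 2-unit word in the window of another DNAJB1 start (chr19:14517929-14517936) is not shown. The other matched stretches are shown 5′ to 3′ on the strand of the gene, with the GAA and TTC units in capitals.
HSPA1A, chr6:31815429-31815452, plus strand: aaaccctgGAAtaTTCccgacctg
HSPA1B, chr6:31827625-31827648, plus strand: aacccctgGAAtaTTCccgacctg
HSPA8, chr11:123062346-123062374, minus strand: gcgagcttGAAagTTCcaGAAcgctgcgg
HSPA8, chr11:123062171-123062199, minus strand: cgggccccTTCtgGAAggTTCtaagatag
HSP90AA1, chr14:102087104-102087133, minus strand: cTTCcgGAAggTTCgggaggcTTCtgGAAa
HSP90AB1, chr6:44247770-44247798, plus strand: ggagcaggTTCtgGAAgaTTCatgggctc
HSP90AB1, chr6:44247823-44247851, plus strand: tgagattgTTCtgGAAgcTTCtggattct
HSPD1, chr2:197500062-197500090, minus strand: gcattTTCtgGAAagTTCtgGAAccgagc
DNAJB1, chr19:14518459-14518482, minus strand: gcggggcgGAAggTTCtggagggg
DNAJB1, chr19:14518429-14518452, minus strand: gggctctgGAAgcTTCcgccggac
In GENCODE v29 (GRCh38) the HSPA1A and HSPA1B stretches and the first of HSPA8 lie upstream of every annotated transcript of their gene. The HSP90AB1, HSPD1 and DNAJB1 stretches lie in an intron of a transcript with an earlier start, and the second of HSPA8 and that of HSP90AA1 overlap an exon of one. HSPA1A and HSPA1B share the same word at -106 and -105 bases from their RefSeq starts, and the sequences before the starts were 94.4% identical over 249 bases. Their transcripts were 98.6% identical over 2152 bases, so that reads of one can be counted to the other and the split between them is uncertain.

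The members differed in level by more than 10-fold. The highest was HSP90AA1, the inducible cytosolic HSP90, with a median of 390 FPKM over the 12 libraries (rank 249 of the genes tested), followed by HSPA8, the constitutive cytosolic HSP70, at 328 and HSP90AB1, the constitutive HSP90, at 324. HSPE1 (203) and HSPD1 (180), the mitochondrial HSP10 and HSP60 that form one folding chamber, came next. Inducible HSP70 was lower, with medians of 99.4 FPKM for HSPA1B and 52.7 for HSPA1A, on either side of the HSP40 DNAJB1 at 70.5. BAG3, a nucleotide exchange factor that links HSP70 to autophagy, and HSPH1, the HSP110 exchange factor, were lowest at 25.6 and 24.5 FPKM. Neighbors in this order mostly did not differ beyond their spread: over the 10 libraries other than control replicate 3, HSPA8 (316 to 365 FPKM) overlapped HSP90AB1 (293 to 379), HSPE1 (131 to 238) overlapped HSPD1 (162 to 209), and BAG3 (23.9 to 27.5) overlapped HSPH1 (22.6 to 28.3).

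**Figure D1:**
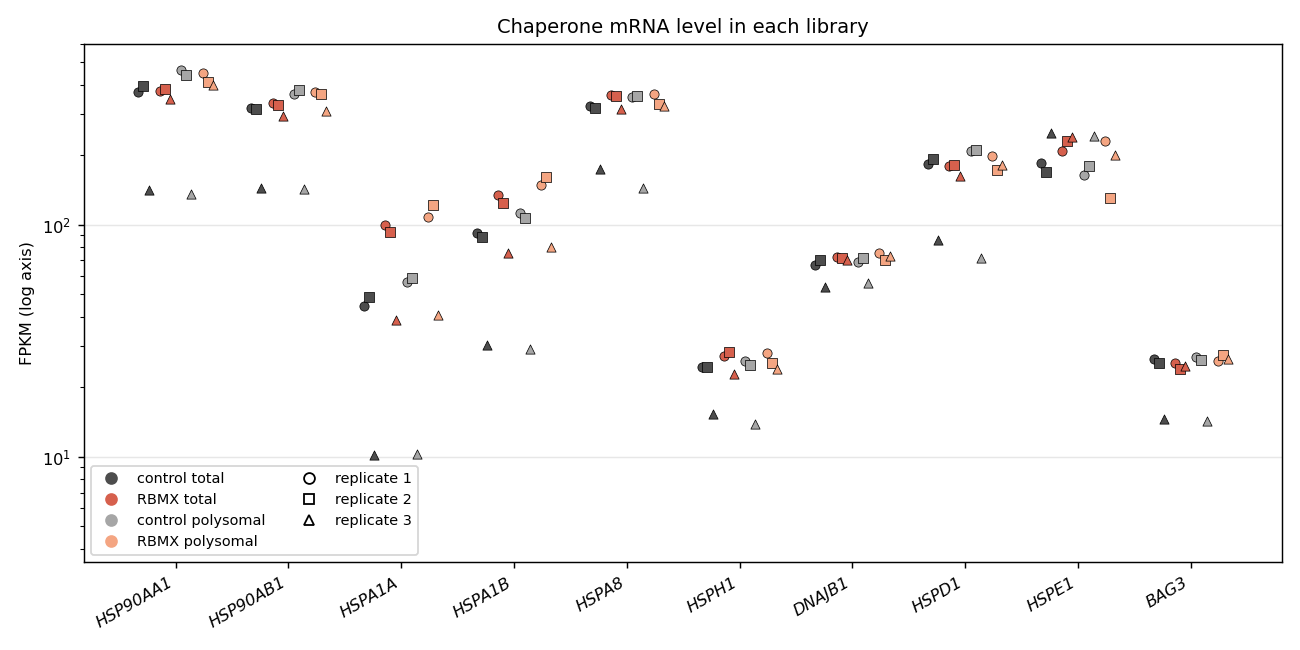
Level of each chaperone mRNA in FPKM (log axis) in each of the 12 libraries, with a point per library, colors for vector and fraction and symbols for the replicate number. Both triangles of control replicate 3 lie below the other 10 libraries for 9 of the 10 genes, and above them for HSPE1 (248 and 241 FPKM).

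Inducible HSP70 varied most between libraries. HSPA1A measured 44.7, 48.8 and 10.1 FPKM in control total RNA and 99.6, 93.1 and 38.7 FPKM in RBMX total RNA. In polysomal RNA it measured 56.7, 58.7 and 10.2 FPKM in control and 107, 121 and 40.9 FPKM in RBMX cells. Replicate 3 was the lowest of its group in all 4 groups, and RBMX replicate 3 lay below control replicates 1 and 2, so that the groups overlapped. HSPA1B, its near-identical neighbor, showed the same order, with 91.7, 88.5 and 30.1 FPKM in control total RNA against 134, 123 and 75.2 FPKM in RBMX total RNA, and 112, 107 and 29.03 FPKM against 148, 160 and 80.0 FPKM in polysomal RNA. Over the 12 libraries HSPA1A ranged 11.9-fold and HSPA1B 5.52-fold, against 1.40-fold for DNAJB1 and 1.90-fold for HSPE1. Over replicates 1 and 2 alone the range of HSPA1A was still 2.70-fold and that of HSPA1B 1.81-fold. HSPE1 was close to HSPA1B there, at 1.76-fold. HSP90AA1, HSPD1 and HSP90AB1 ranged 1.21-fold to 1.24-fold, and HSPA8, DNAJB1, HSPH1 and BAG3 1.14-fold to 1.17-fold.

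Control replicate 3 carried less of most of these mRNAs than the other control cultures. HSP90AA1 measured 372, 397 and 141 FPKM in control total RNA and 461, 442 and 136 FPKM in control polysomal RNA, against 347 to 384 and 400 to 450 FPKM in RBMX cells. On the log2(FPKM + 1) scale, replicate 3 minus the mean of replicates 1 and 2 had a median of -1.001 over the 10 members in total and -1.34 in polysomal RNA, where the median of all genes tested was 0.006 and 0.0008. The deviation was below 0 for 9 of 10 members in each fraction. It was lower than -1 for 5 of 10 members in total RNA (HSPA1A, HSPA1B, HSP90AA1, HSP90AB1 and HSPD1) and, with HSPA8, for 6 of 10 in polysomal RNA, against 1.84% and 2.98% of all genes tested. Among the members just outside this limit in total RNA were HSPA8 at -0.89 and BAG3 at -0.79, and just inside it HSPD1 at -1.12. HSPH1 (-0.63) and DNAJB1 (-0.34) deviated less.

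HSPE1 went the other way. It measured 184, 168 and 248 FPKM in control total RNA and 164, 179 and 241 FPKM in control polysomal RNA, so that replicate 3 was the highest of each group (+0.49 and +0.49). HSPD1, its partner in the mitochondrial chamber, measured 183, 191 and 85.8 FPKM in the same total libraries and 208, 209 and 72.1 FPKM in the polysomal ones. The ratio of HSPD1 to HSPE1 was thus 0.996, 1.14 and 0.346 in control total RNA, and between 0.678 and 0.861 in RBMX total RNA. The genes lie head to head on chromosome 2 (197486581 to 197516737, minus strand, for HSPD1 and 197499994 to 197503457, plus strand, for HSPE1, GRCh38), with RefSeq starts 105 or 539 bases apart. Their annotated spans overlap, and since the counting is not stated to use strand, reads from the shared stretch cannot be told apart. GENCODE v29 also lists 26 pseudogenes named after HSPE1, 17 after HSPD1 and 17 after HSPA8, which can share reads with them, 1 after DNAJB1 and 0 after the other members.

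Several other measures moved with control replicate 3, and their part in these deviations was not tested. Transcript length was one: transcripts under 1000 bases had a median deviation of +0.12 in total and +0.28 in polysomal RNA (461 genes), and those of 5000 bases or longer -0.07 and -0.15 (3387 genes). HSPE1 has the shortest transcript of the members (950 bases) and HSPH1 the longest (5191 bases), and the members with the lowest deviations lie between them at 2455 to 3510 bases. Genes of 2000 to 2999 bases had medians of 0.0002 and 0.01 and were below -1 in 2.54% and 4.17% of cases. Transcript lengths covered 12499 of the 14676 genes tested (85.2%). Each is the length of the longest annotated protein-coding transcript of the gene, which need not be the one these cells express. Highly expressed genes, with a median of at least 100 FPKM and small RNA genes not left out, were below -1 in 7% and 9.71% of cases. Their median deviations were nevertheless above 0, at 0.04 and 0.11, and single genes ranged from -12.7 to 13.3 in total RNA.

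**Figure D2:**
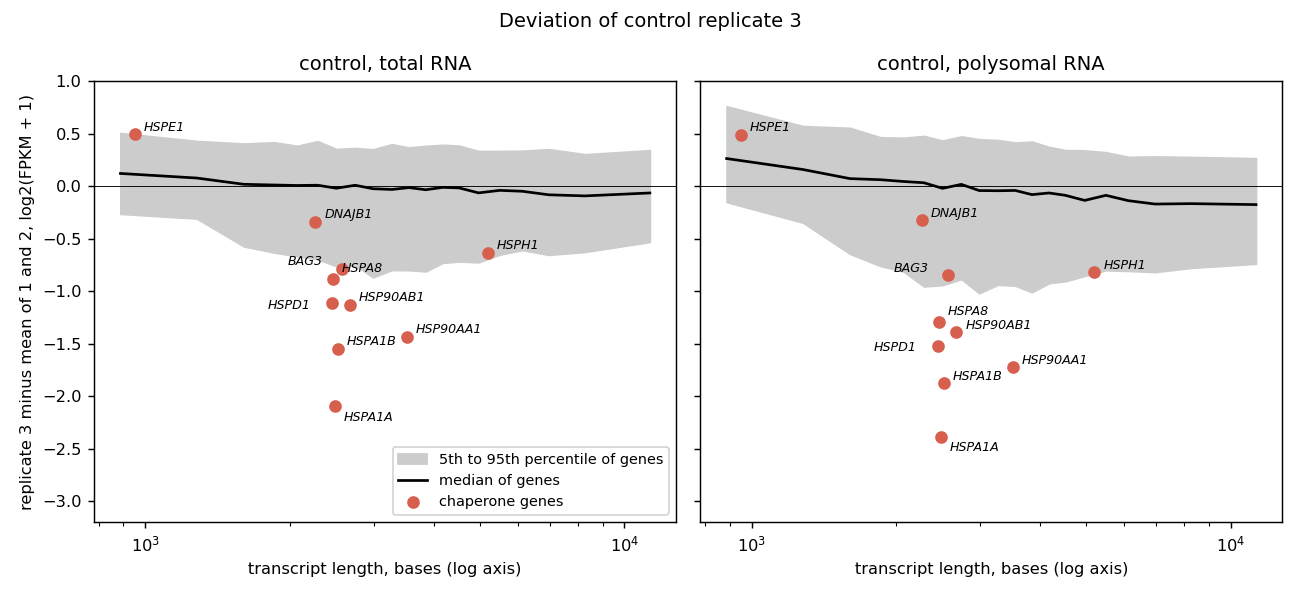
Deviation of control replicate 3 from the mean of replicates 1 and 2, on the log2(FPKM + 1) scale, against transcript length in bases (longest annotated protein-coding transcript, log axis), in total (left) and polysomal RNA (right). Red points are the 10 chaperone genes, the black line is the median of genes in 20 bins of equal number and the grey band their 5th to 95th percentile. HSPE1 lies at +0.49 in both panels, and HSPA1A, the lowest point, at -2.10 and -2.39.

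Some other chaperones were low in this culture as well, and others were not. Of the 78 tested genes of a wider list of chaperones, cofactors and other heat shock genes, 9 in total and 15 in polysomal RNA were below -1 (11.5% and 19.2%, against 1.84% and 2.98% of all genes tested), with medians of -0.17 and -0.29, and 46 and 51 of 78 were below 0. The 8 subunits of the cytosolic chaperonin CCT, which folds actin and tubulin, were all below 0 in total RNA (median -1.02, range -1.25 to -0.51) and in polysomal RNA (median -1.37). CCT3 measured 260, 260 and 109 FPKM in control total RNA. STIP1, which bridges HSP70 and HSP90, measured 159, 159 and 65.4 FPKM and had the lowest deviation of the list in total RNA (-1.27). HSPA4, another HSP110 protein, measured 66.8, 70.9 and 28.99 FPKM. By contrast the 6 subunits of prefoldin, which passes nascent actin and tubulin to CCT, were all above 0 in both fractions (medians 0.18 and 0.22), as PFDN5 with 413, 414 and 483 FPKM shows. The 4 tested genes with an HSPB symbol, HSPB1, HSPB6, HSPB8 and HSPB11, were grouped by that symbol alone and had medians of 0.32 and 0.39. Of these, 1 was below 0 in total and 0 in polysomal RNA, where HSPB1 measured 46.2, 48.0 and 84.8 FPKM. The gene below 0, HSPB6, was low, at 2.88, 2.54 and 2.61 FPKM in control total RNA. These groups also differed in transcript length. PFDN1, PFDN2, PFDN4, PFDN5 and PFDN6 had 677 to 1915 bases and the 4 HSPB genes 909 to 2152. The remaining prefoldin subunit, VBP1, is not included in this range. The CCT subunits had 2005 to 3675 bases, and the part of length in this contrast was not tested. The 5 genes of the HSF family and its regulators had medians of 0.08 and 0.15. These genes were named after their values were seen.

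RBMX replicate 3 deviated in the same direction for inducible HSP70 and little for the other members. HSPA1A was at -1.29 in total and -1.45 in polysomal RNA and HSPA1B at -0.77 and -0.94, values that 1.29% to 2.11% of all genes tested reached. The other 8 members lay between -0.28 and +0.13 in total and between -0.25 and +0.20 in polysomal RNA. The 8 CCT subunits had medians of -0.01 and 0.09 there. HSP90AA1, for example, measured 376, 384 and 347 FPKM in RBMX total RNA.

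The comparison of RBMX with control cells asks how the chaperone mRNAs respond to RBMX overexpression. In total RNA, 0 of 10 members passed the test (limma, Benjamini-Hochberg adjusted p up to 0.05 over all genes tested), where 0.164% of all genes did, and 0 of 10 had an unadjusted p under 0.05. The members' adjusted p ran from 0.37 to 0.685. All 10 differences were positive (median 0.34, against 0 over all genes tested), but the RBMX and control libraries overlapped for all 10, where 11.9% of all genes were higher without overlap and 15.4% lower. HSPA1A had the largest difference (1.30 ± 0.70 SE, 2.46-fold, 95% interval -0.45 to 3.04, adjusted p = 0.37), followed by HSPA1B (0.77 ± 0.49, adjusted p = 0.445), HSP90AA1 (0.42 ± 0.41, adjusted p = 0.609) and HSPA8 (0.39 ± 0.26, adjusted p = 0.46). With 3 cultures against 3 a two-sided exact permutation test on the log2(FPKM + 1) values cannot go below 0.1. In total RNA it gave 0.2 for DNAJB1, 0.3 for HSPA1A, HSPA1B, HSPA8 and HSPH1, and 0.4 to 1.0 for the other members.

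These differences rested largely on control replicate 3. Without it the median over the members was 0.08 and 7 of 10 were positive, 0 members passed where 0.273% of all genes did, and HSP90AA1 (-0.06), HSPD1 (-0.11) and BAG3 (-0.07) changed sign. HSPA1A was then at 0.60 ± 0.46 (adjusted p = 0.439) and HSPA1B at 0.25 ± 0.27 (adjusted p = 0.577). HSPE1 was at 0.35 ± 0.08, with an unadjusted p of 0.01 and an adjusted p of 0.13.

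In polysomal RNA 0 of 10 members passed, where 0.0477% of all genes did, and 0 of 10 had an unadjusted p under 0.05 (adjusted p 0.528 to 0.907). The difference was positive for 9 of 10 (median 0.34, against 0 over all genes), with HSPE1 at -0.08 ± 0.26. HSPA1A was at 1.28 ± 0.79 (2.43-fold, 95% interval -0.70 to 3.26) and HSPA1B at 0.80 ± 0.60 (1.74-fold). All 10 members overlapped between the groups, where 10.0% of all genes were higher without overlap and 12.5% lower. Without control replicate 3 the median was 0.01, with 5 of 10 positive and 0 passing, where 0.0750% of all genes passed. HSP90AA1 (-0.11), HSP90AB1 (-0.10), HSPA8 (-0.06), HSPD1 (-0.19) and BAG3 (-0.001) were then negative and HSPE1 positive (0.08), as it also was without RBMX replicate 2 (0.16).

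**Figure D3:**
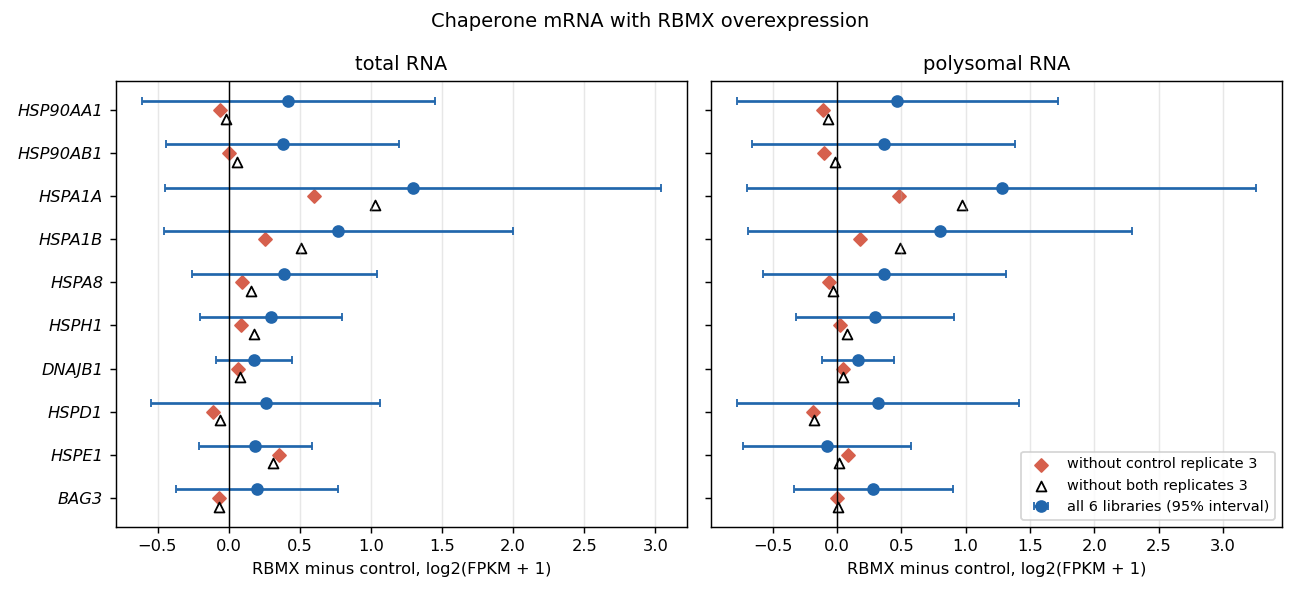
Difference between RBMX and control cells on the log2(FPKM + 1) scale for each chaperone gene in total (left) and polysomal RNA (right). Blue points with bars are the estimates over 3 against 3 libraries with 95% intervals, diamonds leave out control replicate 3 and open triangles both replicates 3, and all blue intervals include 0, with HSPA1A the farthest right at 1.30 and 1.28.

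Among the cultures with numbers 1 and 2 inducible HSP70 was higher in RBMX than in control cells. This alternative, which leaves out replicate 3 of both groups, was chosen after seeing the data and leaves 2 libraries against 2. HSPA1A then differed by 1.03 ± 0.07 in total RNA (adjusted p = 0.0206) and by 0.97 ± 0.08 in polysomal RNA (adjusted p = 0.0389), and it was the single member to pass in each fraction, where 2.09% and 2.37% of all genes passed. HSPA1B differed by 0.51 ± 0.06 (adjusted p = 0.0604) and 0.49 ± 0.07 (adjusted p = 0.0627). The other members lay between -0.07 and 0.31 in total and between -0.18 and 0.07 in polysomal RNA, with adjusted p of at least 0.11. In all other settings tried, HSPA1A did not pass in either fraction (adjusted p 0.195 to 0.87).

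The share of inducible HSP70 reads given to HSPA1A also differed. The ratio of HSPA1A to HSPA1B was 0.488, 0.551 and 0.337 in control total RNA and 0.743, 0.754 and 0.515 in RBMX total RNA. The polysomal library of each culture gave nearly the same ratio as its total library, 0.507, 0.548 and 0.352 in control and 0.726, 0.754 and 0.512 in RBMX cells. RBMX replicate 3 lay below control replicate 2, so the groups overlapped, and given the near-identity of both transcripts the ratio may move with the assignment of reads. Against HSPA8, the constitutive HSP70, HSPA1A stood at 0.138, 0.153 and 0.0584 in control total RNA and at 0.277, 0.260 and 0.123 in RBMX total RNA.

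In the wider list 0 of 78 genes passed in either fraction between RBMX and control cells (limma, adjusted p at least 0.174), while 9 in total and 6 in polysomal RNA had an unadjusted p under 0.05, as did 2756 and 1715 of all 14676 genes tested. In total RNA 54 of 78 differences were positive (median 0.14, and 0.03 without control replicate 3), and in polysomal RNA 52 of 78 (median 0.11, and -0.03). In total RNA 16 genes were higher and 5 lower without overlap of the groups, a share of 78 to be read beside the 11.9% and 15.4% of all genes, and in polysomal RNA 10 and 5, beside 10.0% and 12.5% of all genes. DNAJA1, an HSP40, had the largest difference among them, with 241, 250 and 126 FPKM in control and 294, 295 and 282 FPKM in RBMX total RNA (0.56 ± 0.28, adjusted p = 0.336), and it stood at 0.61 ± 0.36 in polysomal RNA. FOS, an immediate early transcription factor gene, measured 1.74, 1.796 and 2.22 FPKM in control and 3.06, 3.38 and 2.63 FPKM in RBMX total RNA (0.46 ± 0.10, adjusted p = 0.174), and IER5, an immediate early gene that promotes HSF1 activity, 31.9, 32.8 and 21.9 FPKM against 37.9, 37.1 and 37.6 FPKM (0.39 ± 0.16, adjusted p = 0.272). In polysomal RNA FOS was at 0.44 ± 0.10 and IER5 at 0.46 ± 0.22. For DNAJA1 and IER5, as for the members other than HSPE1, control replicate 3 was the lowest library, whereas for FOS it was the highest of the controls.

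Fewer genes of the wider list were lower than higher with RBMX, except in polysomal RNA without control replicate 3, where 31 of 78 differences were positive. BAG4, another BAG domain partner of HSP70, measured 12.9, 12.9 and 13.8 FPKM in control and 10.1, 10.9 and 10.95 FPKM in RBMX total RNA (-0.29 ± 0.06, adjusted p = 0.174) and stood at -0.22 ± 0.09 in polysomal RNA. BAG5 (-0.20 ± 0.08) and the prefoldin subunit VBP1 (-0.19 ± 0.09) were the other lower genes named by size in total RNA. HSBP1, a small protein that binds HSF1, measured 223, 220 and 294 FPKM in control and 184, 138 and 198 FPKM in RBMX polysomal RNA (-0.50 ± 0.19, adjusted p = 0.418), and the small heat shock protein gene HSPB6 stood at -0.23 ± 0.10. None of these passed the test.

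The comparison of polysomal with total RNA asks how far the chaperone mRNAs were found on polysomes relative to their total amount. Both libraries of a culture come from one gradient, and the difference within each culture is the direct measure. For RBMX cultures 1 and 2, however, the deviations over all genes but the small RNA genes did not show this pairing. Nor did they clearly tell control cultures 1 and 2 apart. HSPA1A was higher in polysomal RNA in 6 of 6 cultures, by 0.33, 0.26 and 0.01 in control cultures 1 to 3 and by 0.11, 0.37 and 0.08 in RBMX cultures 1 to 3. HSPA1B was higher in 5 of 6 cultures (0.28, 0.27 and -0.05 in control and 0.14, 0.37 and 0.09 in RBMX cultures). HSP90AA1 (0.31, 0.15 and -0.05, then 0.26, 0.10 and 0.20) and HSP90AB1 (0.20, 0.27 and -0.03, then 0.16, 0.15 and 0.08) were also higher in 5 of 6. Control culture 3 had the lowest difference for these 4 genes and for HSPA8 (-0.27) and HSPD1 (-0.25). HSPE1 was higher in 2 of 6 cultures and ranged from -0.80, in RBMX culture 2, to 0.15, and its difference in RBMX cells was -0.30 with that culture and -0.06 without it.

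Within the vectors, with groups not paired by culture, 0 of 10 members passed. In control cells, where 0.0818% of all genes passed, the members' adjusted p was at least 0.996. None of the 10 was free of overlap, where 7.63% of all genes were higher and 7.31% lower without it. Without control replicate 3, 1.36% of all genes and 0 of 10 members passed, while 6 members and 3762 of all 14676 genes had an unadjusted p under 0.05, and the median was 0.15 over the members and 0.02 over all genes. In RBMX cells 1.34% of all genes and 0 of 10 members passed (adjusted p 0.264 to 0.967). HSP90AA1 (0.19 ± 0.09) and BAG3 (0.10 ± 0.05) were higher in polysomal RNA without overlap and 0 members were lower, where 14.6% of all genes were higher and 16.2% lower. With each culture as a block 6 genes in control and 4 in RBMX cells passed in place of 12 and 196, and 0 members.

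One fit over all 6 cultures, each a block, was added after seeing the data. It called 23.9% of all genes tested (1608 higher and 1904 lower in polysomal RNA) and 1 of 10 members, HSPA1A (0.19 ± 0.06 SE, 1.14-fold, adjusted p = 0.0493). HSPA1B (0.18 ± 0.06, adjusted p = 0.0638), HSP90AB1 (0.14 ± 0.05, adjusted p = 0.0836) and HSP90AA1 (0.16 ± 0.06, adjusted p = 0.085) did not pass. The median over the members was 0.05, against -0.003 over all genes. The call of HSPA1A did not hold without control culture 1 or 2 or RBMX culture 1, 2 or 3 (0.17, 0.18, 0.21, 0.16 and 0.22), nor with HSPA1A and HSPA1B summed (0.19), whereas without control culture 3 HSP90AA1 (0.21), HSP90AB1 (0.17) and HSPA1B (0.23) passed beside it. Scaling mattered too: leaving out small RNA genes moved the median of all genes by 0.10, so that 5374 of 6616 calls were higher (2996 of 4555 with quantile scaling), and 7 members passed, HSPA1B at 0.30 and HSP90AA1 at 0.28 before that shift is taken off, and the differences of HSPA8 and HSPH1, which were near 0, changed sign under this and under quantile scaling.

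**Figure D4:**
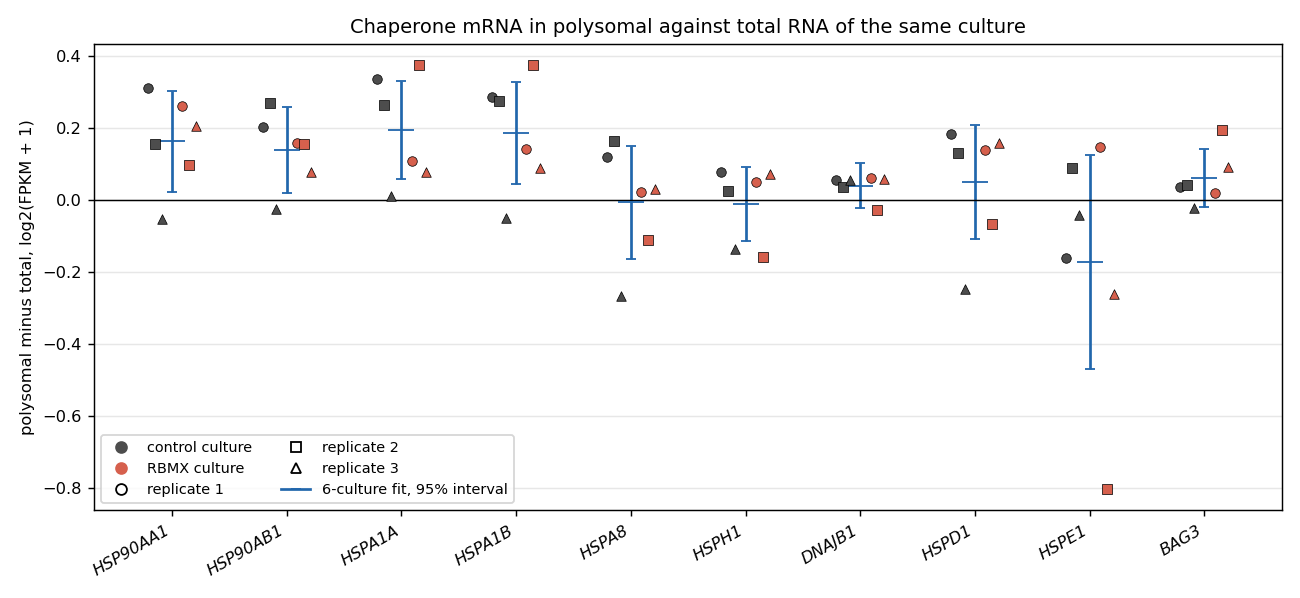
Polysomal minus total RNA of the same culture on the log2(FPKM + 1) scale for each chaperone gene, with a point per culture and, in blue, the estimate over 6 cultures with its 95% interval. HSPA1A is above 0 in 6 of 6 cultures, and HSPE1 has the widest spread, down to -0.80 in RBMX culture 2.

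In the wider list 0 of 78 genes passed within control or RBMX cells (17 in RBMX and 6 in control cells had an unadjusted p under 0.05, as did 3373 and 1180 of all 14676 genes). Without control replicate 3 HSPB1 passed in control cells (-0.66 ± 0.03, adjusted p = 0.0243). In the fit over 6 cultures 19 of 78 passed, 24.4% against 23.9% of all genes. Without RBMX culture 3 this count was 3, where 839 genes passed in all. Every one of the 19 had its sign in 6 of 6 cultures. Being called by a fit to these same cultures favors this, so it is no separate support. Of the 19, 10 were higher and 9 lower in polysomal RNA (15 of 23 higher with quantile scaling). Those named here were chosen by size after their values were seen. HSPB1, the small heat shock protein HSP27, was lower in polysomal RNA by 0.54 ± 0.09 (adjusted p = 0.0117), with 67.9, 73.6 and 82.1 FPKM in total and 43.9, 51.5 and 49.0 FPKM in polysomal RNA of RBMX cells. ATF3, a stress-induced transcription factor gene, stood at -0.38 ± 0.04 (adjusted p = 0.00376), and GRPEL2, a mitochondrial nucleotide exchange factor, at -0.31 ± 0.06, followed by the HSP40 gene DNAJB4 (-0.29 ± 0.07) and HSF2 (-0.27 ± 0.08), a heat shock factor. On the higher side were LONP1, a mitochondrial protease with chaperone activity (0.29 ± 0.05, adjusted p = 0.0153), DNAJC5, a J-domain protein of secretory vesicles (0.23 ± 0.05), SERPINH1, the collagen chaperone HSP47 (0.21 ± 0.04), HSPBP1, an HSP70 exchange factor (0.20 ± 0.04), and UNC45A, an HSP90 cofactor for myosin (0.19 ± 0.05). None of the 14 CCT and prefoldin subunits passed.

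Other differences of the list within one vector are given as values. In control cells DNAJC5 (0.20 ± 0.06), STUB1, a ubiquitin ligase of chaperone clients (0.19 ± 0.07), and GRPEL1 (0.15 ± 0.05) were higher in polysomal RNA without overlap, and BAG5 (-0.28 ± 0.08), DNAJB4 (-0.26 ± 0.10) and HSF2 (-0.22 ± 0.10) lower. In RBMX cells these were LONP1 (0.31 ± 0.11), DNAJC5 (0.26 ± 0.08) and SERPINH1 (0.23 ± 0.07) on the higher side and HSPB1 (-0.62 ± 0.09, adjusted p = 0.0555), PFDN4 (-0.59 ± 0.22) and HSBP1 (-0.51 ± 0.15) on the lower.

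The change of the polysomal difference with RBMX, the interaction of vector and fraction over 12 libraries, did not pass for any member. It lay between -0.27 ± 0.32 for HSPE1 and 0.08 ± 0.36 for BAG3, with an adjusted p of 1 for 10 of 10 members and 0 of 10 with an unadjusted p under 0.05, where 0.0204% of all genes passed. Without control replicate 3 0.0477% of all genes and 0 members passed. For HSPA1A it was -0.02 ± 1.13 (95% interval -2.54 to 2.51), an interval too wide to exclude large changes, and with each culture as a block -0.02 ± 0.12. With that block HSPE1 was at -0.27 ± 0.25 and BAG3 at 0.08 ± 0.07, and without RBMX replicate 2 HSPE1 was at -0.02.

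The members other than HSPE1 varied together across the libraries. Pearson correlations of log2(FPKM + 1) between pairs of the members other than HSPE1 lay between 0.85 and 0.992 (36 pairs, 12 libraries), and those with HSPE1 between -0.605 and -0.373 (9 pairs). Without control replicate 3 the former ranged from -0.206 to 0.973 over 10 libraries, with 33 of 36 above 0, and the latter from -0.787 to 0.412. These points share cultures and fractions, and control replicate 3 sets most of the spread. Among the genes outside the members with the profile most like the members' mean over 12 libraries were SNW1 (r = 0.992), ELP3 (0.990), SEC23B (0.989) and CCT3 (0.989), with r between 0.784 and 0.954 over the 10 libraries without that culture. SEC23B, a subunit of the COPII vesicle coat, measured 32.6, 32.1 and 15.2 FPKM in control total RNA, so that replicate 3 was low as for the members other than HSPE1.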

How the data were processed

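The authors deposited gene-level FPKM values, 1 column per library and 0 unmatched columns. The submitters' processing notes name CASAVA 1.8, TopHat2 2.0.13, Cufflinks 2.2.1, Cuffnorm and hg19, whereas the methods of the study name hg38, a GENCODE annotation and normalization by library size; which of these made the FPKM values is not given in the sources used here. Values were analyzed as log2(FPKM + 1), where fold changes of low genes are understated, for 14676 of 25268 genes, those whose mean FPKM reached 0.5. limma 3.58.1 (R 4.3.3; lmFit, eBayes with trend) was fitted to the 6 libraries of each comparison and to all 12 for the interaction, with Benjamini-Hochberg adjustment over all genes tested and a threshold of 0.05. For RBMX against control within a fraction, an adjusted p thus sets the difference against the spread between cultures. The interaction and the polysomal comparisons without a block took the libraries of a culture as independent. Fits with each culture as a block set the change against the spread of the differences within cultures. The fits were checked on simulated data. Apart from the fit over all cultures, the simulated libraries were independent and held no deviating culture, unlike these data. Small RNA genes were 494 of the genes tested. Total and polysomal RNA of a culture are paired by their gradient (correlation of deviations, without small RNA genes, 0.606, 0.686 and 0.836 in control and 0.223, 0.0199 and 0.655 in RBMX cultures). Some libraries of unlike number were closer. In control, total 1 with polysomal 2 gave 0.651 and total 2 with polysomal 1 gave 0.633, both above total 1 with polysomal 1. In RBMX cells, total 1 with polysomal 2 gave 0.407 and total 2 with polysomal 1 gave 0.481. The values thus did not show the pairing of RBMX cultures 1 and 2, and did not clearly tell control cultures 1 and 2 apart.

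The members and lists were chosen with earlier results of these data known. Genes named are all members, RBMX, from the wider list the 5 genes per direction and comparison with the largest change that passed without overlap (where none did, 3, as values), and the 5 genes most like the members' profile, of which 1 is not reported here. The genes named for their level in control replicate 3 were chosen after their values were seen. Positions and lengths are from GENCODE v29, identities from BLAST 2.17.0. Python 3.11.15 and matplotlib 3.10.9 were used for plots. The alternatives covered the pseudocount (0.1), the filter (0.1, 1 or none), median-ratio, quantile and small-RNA-free scaling, eBayes without trend, HSPA1A and HSPA1B summed, a replicate block, a joint fit of all 12 libraries and the omission of each replicate. Exon usage, and the knock-down and RIP experiments, were not analyzed here.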

Additional observations from a re-analysis of the deposited data

How the results depend on the processing

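Between RBMX and control cells no alternative brought a member past the threshold except the omission of replicate 3 from both groups (1 member, HSPA1A, in each fraction). The number of genes called in total RNA was 24, and 62 with a minimum mean of 0.1 FPKM, 73 with no filter, 11 without small RNA genes, 13 with the replicate block, 60 with all 12 libraries in one fit, 19 to 178 with 1 replicate left out and 306 without replicate 3 of both groups. In polysomal RNA it was 7, and 14, 8, 2, 3, 22, 9 to 126 and 348 in that order, the counts of 178 and 126 being those without RBMX replicate 3. The values did not show that the replicate numbers pair RBMX with control cultures. The correlation of deviations was 0.339, -0.0421 and 0.021 in total and -0.172, -0.00523 and 0.0672 in polysomal RNA. Not every sample was closest to its own number, and a shared batch was not tested. With the replicate block (limma) HSPA1A had an adjusted p of 0.195 and 0.4, and 0 members passed. The unadjusted p in that fit was 0.00627 and 0.00892 for HSPA1A and 0.0262 and 0.039 for HSPA1B. It was under 0.05 for 2 of 10 members in each fraction, and for 2763 and 1777 of all 14676 genes tested. Leaving out 1 replicate moved the differences of HSP90AA1 between -0.060 and 0.68, HSPD1 between -0.11 and 0.46 and BAG3 between -0.065 and 0.34 in total RNA. In polysomal RNA HSP90AA1 moved between -0.11 and 0.77, HSP90AB1 between -0.10 and 0.61, HSPA8 between -0.064 and 0.59, HSPD1 between -0.19 and 0.57, HSPE1 between -0.25 and 0.16 and BAG3 between -0.0014 and 0.43. The median of the wider list in polysomal RNA went from 0.11 to -0.03 without control replicate 3. For polysomal against total RNA, 12 genes were called in control cells, 5 without small RNA genes, 6 with the block, 41 with all 12 libraries in one fit and 13 to 199 with 1 replicate left out. In RBMX cells 196 were called, 53 with no filter, 70 with quantile scaling, 4 with the block, 21 with all 12 libraries and 21 to 23 with 1 replicate left out. Of these calls the genes higher in polysomal RNA were 3 of 12 in control cells (3 of 8 with quantile scaling, 0 of 5 without small RNA genes), and of the RBMX effect in polysomal RNA 4 of 7 were higher (2 of 2 without small RNA genes). Differences near 0 turned: in control cells HSPH1 and HSPE1 were at 0.015 and 0.014 with quantile scaling and at 0.082 and 0.058 without small RNA genes, and in RBMX cells HSPA8 and HSPH1 were at 0.34 and 0.022 and at 0.12 and 0.13. With 1 replicate left out HSPA8, HSPD1, HSPE1 and HSPH1 ranged from -0.074 to 0.14, -0.059 to 0.16, -0.10 to 0.023 and -0.055 to 0.052 in control cells, and HSPA8 and HSPH1 from -0.045 to 0.025 and -0.054 to 0.061 in RBMX cells. The interaction called 3 genes, 5 with no filter, 5 with the block, 0 without small RNA genes (45 at an unadjusted p under 0.05), 14 without replicate 3 of both groups and 4 to 7 with 1 replicate left out. Its sign turned for HSPH1 with median-ratio scaling (0.0084), for HSP90AB1, HSPA1A, HSPA8, HSPH1 and DNAJB1 with quantile scaling (0.13, 0.054, 0.18, 0.0072 and 0.025) and without small RNA genes (0.030, 0.032, 0.022, 0.045 and 0.029), and for HSPA1A summed with HSPA1B (0.016). With 1 replicate left out it ranged from -0.045 to 0.14 for HSP90AA1, -0.10 to 0.043 for HSP90AB1, -0.11 to 0.048 for HSPA1A, -0.078 to 0.090 for HSPA1B, -0.16 to 0.054 for HSPA8, -0.064 to 0.072 for HSPH1, -0.033 to 0.011 for DNAJB1 and -0.079 to 0.14 for HSPD1. The fit over 6 cultures called 3512 genes and 1 member, 2129 with no filter, 6616 without small RNA genes and 839 to 3117 without 1 replicate, while 0 members passed with a minimum of 0.1 FPKM, no filter, median-ratio scaling, eBayes without trend or HSPA1A and HSPA1B summed, 5 with quantile scaling, 7 without small RNA genes and 0 to 4 without 1 replicate. HSPA8 and HSPH1 turned to 0.25 and 0.019 with quantile scaling and to 0.11 and 0.10 without small RNA genes, and ranged from -0.041 to 0.045 and -0.029 to 0.018 without 1 replicate. The cause of these moves was not tested. With 3 cultures per vector and unknown depth, differences of the size of the spread of inducible HSP70 could not be resolved.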
